A study of Mus musculus with 6 samples.

Results

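The proteasome genes of sorted mouse subventricular zone (SVZ) cells were taken as all genes of the deposited expression table whose symbol starts with Psm, a letter from a to g and a digit. This rule found 55 of 55487 genes, and 49 of them reached a normalized count of at least 10 in at least 3 samples and were tested among 17278 genes. The series asked how loss of the retinoblastoma family (pRb, p107 and p130, which restrain E2F transcription factors) alters adult neural stem cells. TKO mice were Rb(F/F) and p130(F/F) and lacked both copies of p107 (-/-), and THC mice were heterozygous, Rb(F/+) and p130(F/+) with p107 (+/-), with 3 samples each. Mice of both groups carried NestinCreERT2/R26;EYFP, received tamoxifen, and had the mixed background C57BL/6;Sv/129. Gavage began at 6 to 10 weeks of age and delivered 200 mg/kg daily on 5 days, and the SVZ was dissected when another 10 days had passed. Each sample pooled YFP-expressing cells of several mice, at least 200000 of them, and the series calls the samples biological replicates. Rb and p130 were thus removed only in cells in which a Nestin-driven Cre had been active, whereas p107 was lost in the germline, and THC mice carried 1 such allele of each. Replicate 1 of each genotype belonged to a February batch and replicates 2 and 3 to a November batch.

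The 26S proteasome degrades ubiquitin-tagged proteins. Its barrel, the 20S core, is built of outer alpha and inner beta rings, and the 19S regulatory particle caps the barrel, unfolds substrates with its ATPases and removes ubiquitin. Under interferon, cells make the immunosubunits Psmb8, Psmb9 and Psmb10, which replace the catalytic subunits Psmb5, Psmb6 and Psmb7 in newly assembled cores and favour peptides that fit MHC class I, and the PA28 activator made of Psme1 and Psme2, which opens the core.

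Libraries held 15536084 to 16961817 reads that fell in genes. The count of Rbl1, which encodes p107, was 42.0, 18.3 and 14.5 in TKO, against 520.2, 497 and 646 in THC, so it was low in every TKO library. Rb1 was higher in TKO, at 3349.5, 3573 and 2877, against 2022, 1631 and 1895 in THC (log2 change 0.82, adjusted p = 0.00066 by limma), and Rbl2, which encodes p130, had a change of -0.13 (adjusted p = 0.54). Counts cover the whole gene and the floxed parts are not given in the labels, so only Rbl1 checks the labels. Values are normalized counts as deposited, scaled by 1 factor per library. Changes are TKO minus THC on the scale log2(normalized count + 1), from a limma model with batch and genotype, and a gene was called at a Benjamini-Hochberg adjusted p under 0.05 over all genes tested.

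Of the 49 genes tested, 5 rose in TKO (Psmb8, Psmb9, Psme2, Psmg2 and Psmc3ip) and 0 fell, by limma with Benjamini-Hochberg adjustment. Across all genes tested 27.9% were called, 14.3% as higher and 13.6% as lower. At an unadjusted p under 0.05 the count was 6 of 49, all higher, the sixth being Psme1, against 38.4% of all genes tested. edgeR and DESeq2 called 5 each with 0 lower. The authors' deposited table calls the same number, 5, at its own adjusted p, where it calls 27.7% of the genes tested here. The TKO and THC values did not overlap for 7 of the 49, all higher in TKO (the 5 called, Psmc3 and Psmd13), against 38.9% of all genes tested. The median change was 0.07 over the 49 genes, with 0.07 within February and 0.08 within November, and -0.00 over all genes tested. The calls concerned a few genes, and 44 of the 49 did not pass. In the plot of changes by class, Psmb8, Psmb9 and Psmc3ip lie apart from the constitutive subunits, while the intervals of Psme2 and Psmg2 overlap theirs.

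**Figure D1:**
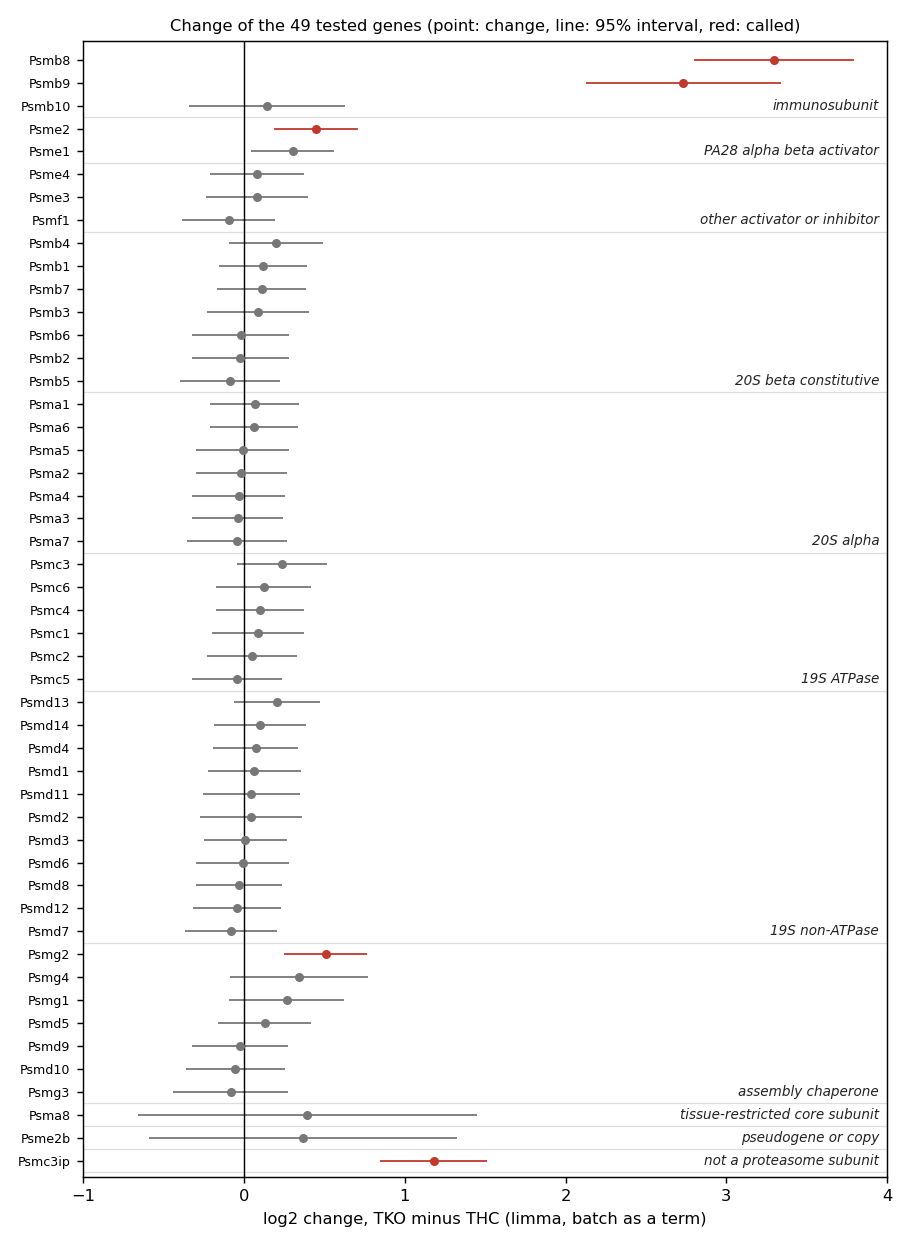
Log2 change, TKO minus THC, of the 49 tested genes (points) with 95% confidence intervals (lines), grouped by role from top to bottom; red marks genes called by limma. Psmb8 at 3.30 and Psmb9 at 2.73 lie far to the right of the constitutive 20S and 19S subunits, which lie between -0.09 and 0.24.

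Among the immunosubunits, Psmb8 and Psmb9 rose and Psmb10 did not pass the test. Psmb8, the immunosubunit with chymotrypsin-like activity (chromosome 17, 34197721 to 34201454, GRCm38, plus strand), had normalized counts of 344, 490.1 and 562 in TKO, against 30.1, 67.1 and 46.5 in THC. The groups were far apart, and the lowest TKO library, TKO 1, stood well above the highest THC library, THC 2. The means were 465 ± 111 in TKO and 47.9 ± 18.5 in THC (SD, n = 3 each), a log2 change of 3.30 (SE 0.23, adjusted p = 2.5e-06 by limma), which is 9.83-fold on the log2(value + 1) scale. Within the batches the change was 3.47 in February, with 1 sample a genotype, and 3.21 in November.

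Psmb9, which replaces Psmb6 (chromosome 17, 34181987 to 34187764, minus strand), had 253, 274 and 297 in TKO, against 37.1, 58.6 and 30.3 in THC. The 3 TKO libraries were close to each other and none came near a THC library. The log2 change was 2.73 (SE 0.28, adjusted p = 2.4e-05 by limma), with 2.74 in February and 2.73 in November. Psmb10, which replaces Psmb7 (chromosome 8, 105935735 to 105938444, minus strand), had 174, 188 and 205 in TKO, against 166, 218 and 136 in THC. Both the highest and the lowest of its 6 values were THC libraries. Its log2 change was 0.14 (SE 0.22, 95% interval -0.34 to 0.63, adjusted p = 0.68 by limma), and without THC 3 it was -0.06. The interval leaves out changes of the size seen for Psmb8 and Psmb9.

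**Figure D2:**
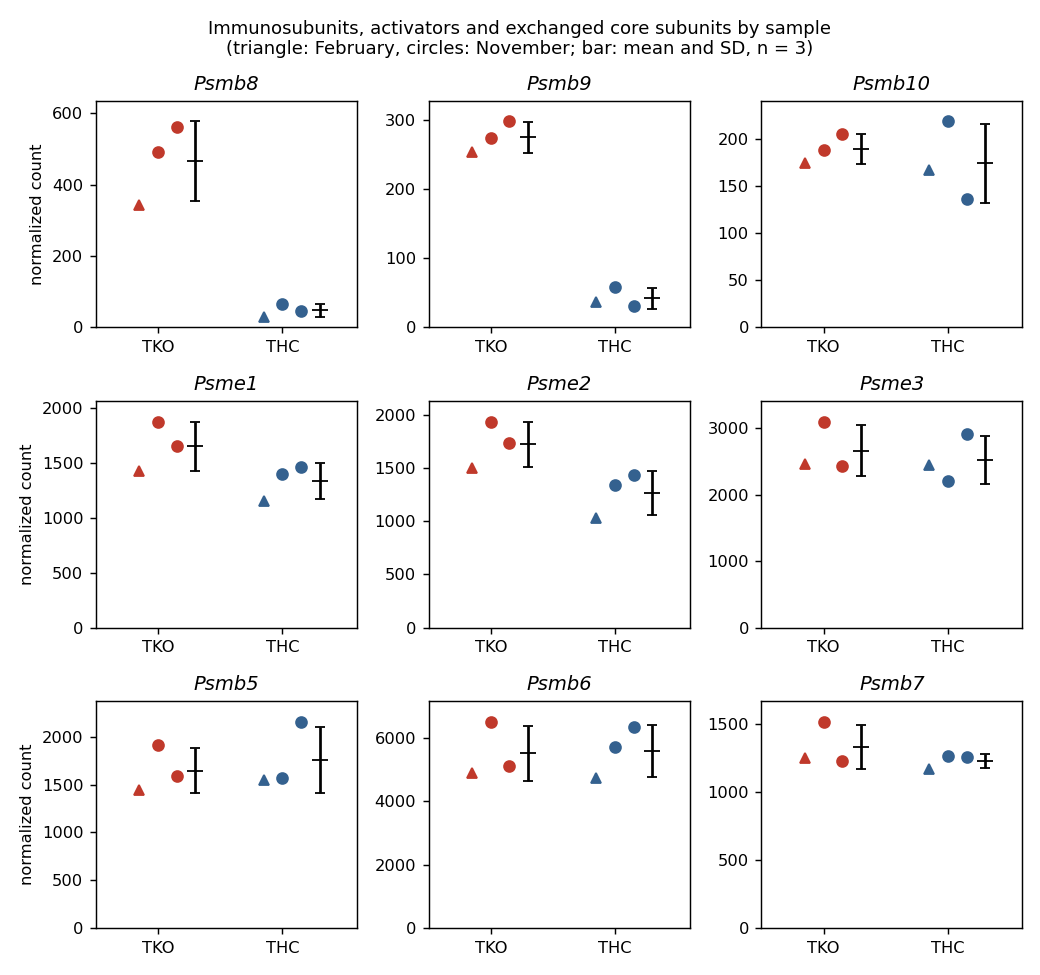
Normalized count per sample (y axis, from 0) of the immunosubunits, of PA28 with Psme3, and of the exchanged core subunits in TKO (red, left) and THC (blue, right). Triangles are February and circles November samples, and bars show mean and SD (n = 3); only Psmb8, Psmb9 and Psme2 of these 9 passed the test.

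In such bulk samples a different share of cells of some type and a different amount of RNA per cell cannot be told apart. Markers of other cells differed beside the immunosubunits. Across all genes tested 14.3% were called higher and 13.6% lower, the shares to set beside the marker counts here. Of 15 microglia and macrophage markers, 7 were higher and 0 lower, with a median change of 1.003. Their summed normalized counts were 9028, 2520.2 and 1702 in TKO 1, 2 and 3, against 5886, 1549.7 and 1161 in THC 1, 2 and 3, so the February libraries stood highest in both genotypes. Within each batch these sums, Psmb8 and Psmb9 were higher in every TKO library than in every THC library. TKO 1, the only February library of TKO, had the highest microglia sum and the lowest TKO values of Psmb8 and Psmb9. THC 1, the only February library of THC, had the highest THC microglia sum and the lowest THC value of Psmb8. Its Psmb9 value was not the lowest (37.1, against 30.3 in THC 3). With 1 February library per genotype, batch and library cannot be told apart in these values. None of 6 T and B cell markers reached the level for testing, their sums were 5.86 to 13.5 in TKO and 1.89 to 14.03 in THC, and 3 of them (Cd3e among these) had no read in any sample. Endothelial markers were lower for 5 of 6, neuroblast markers for 3 of 4 and oligodendrocyte markers for 4 of 6 with 1 higher, while 2 of 6 neural stem cell and astrocyte markers were higher, and of 4 ependymal markers 1 was higher and 2 were lower. The part of these differences in the changes of the proteasome genes was not tested.

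Short stretches of the promoters of Psmb8, Psmb9 and Psme1 are shown because Psmb8 and Psmb9 moved together while Psmb10 did not. RefSeq windows (GRCm38.p6) from 250 bases before to 50 after each start site were searched on both strands for the core of the interferon-stimulated response element (GAAA, any 2 bases, GAAA), TTCNNNGAA (the gamma-activated site), TTTNNCGC (E2F-like), TGACNNNGC (the core of the antioxidant response element) and CCAAT. Windows were found for 42 of the 55 genes, 45 windows in all. In the sequences below, read 5′ to 3′ along the gene's strand, capitals mark the match. Psmb9 (chr17:34187410-34187439, minus strand) held TTTNNCGC on the opposite strand at -98 to -91 from its RefSeq start, Psmb8 (chr17:34198087-34198116, plus strand) held TTCNNNGAA at -97 to -89, and Psme1 (chr14:55578493-55578522, plus strand) held the response element core on the opposite strand at 10 to 19 after the start.
Psmb9: gtttgctctggGCGCCAAAtgctggtagaa
Psmb8: gtcctccgctgTTCCCAGAAgatgcccccc
Psme1: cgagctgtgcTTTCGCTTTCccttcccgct

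The response element core also stood in the windows of 4 more genes, and like Psme1 none of them passed the test. These were the core subunit Psmb3 (chr11:97703261-97703290, plus strand), the ubiquitin receptor Psmd4 (chr3:95042675-95042704, minus strand), and the assembly chaperones Psmd9 (chr5:123228021-123228050, plus strand) and Psmg4 (chr13:34162969-34162998, plus strand).
Psmb3: cacagtgactTTTCACTTTCcgctttccat
Psmd4: ataaccaaccTTTCCATTTCtgtggcgcct
Psmd9: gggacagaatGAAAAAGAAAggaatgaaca
Psmg4: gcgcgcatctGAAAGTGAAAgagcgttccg
The response element core was found in 5 of the 45 proteasome windows (11.1%), against 3.44% of 32851 RefSeq windows. For TTCNNNGAA the count was 3 of 45 (6.67%) against 8.30% of all windows, and for TTTNNCGC 7 (15.6%) against 5.17%. For TGACNNNGC it was 6 (13.3%) against 12.4%, and for CCAAT 15 (33.3%) against 37.4%. The windows of Psmb10 and Psme2 held none of these letters, and the Psmb9 window also held CCAAT, starting at -8 from its RefSeq start. Beside Psmb9, TTTNNCGC stood in windows of Psmc2, Psmc4, Psmd11, Psme4, Psmf1 and Psmg1, and none of these genes passed the test. Beside Psmb8, TTCNNNGAA stood in windows of Psmd2 and Psmg1, which did not pass either. The windows of Psmb8 and Psmb9 lie wholly within exons of the GENCODE annotation, whose start sites differ from those of RefSeq, so a match describes these letters and no site.

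Each immunosubunit was next set against the constitutive subunit whose place it takes. Psmb5, the chymotrypsin-like subunit of the constitutive core, had 1439.5, 1911 and 1593 in TKO, against 1547, 1573 and 2157 in THC. Psmb6, the caspase-like subunit, had 4896, 6501 and 5123 in TKO, against 4724, 5695 and 6340.2 in THC. Psmb7, the trypsin-like subunit, had 1255, 1519.6 and 1228 in TKO, against 1169.8, 1267 and 1258 in THC. The groups overlapped for each, and the log2 changes of -0.09, -0.02 and 0.11 (95% intervals -0.40 to 0.23, -0.32 to 0.28 and -0.17 to 0.38) did not pass the test.

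Per kilobase of the principal transcript, levels in THC were 29.4 for Psmb8, 31.0 for Psmb9 and 132 for Psmb10 in normalized counts per kilobase. In TKO the same 3 genes stood at 286, 203 and 144. By this length Psmb10 was the most abundant immunosubunit in THC and the least abundant in TKO. By the joined length of all annotated exons (3381, 3660 and 1705 bases), the least abundant in TKO would be Psmb9. The constitutive partners Psmb5, Psmb6 and Psmb7 stood at 1833, 6901 and 1150 per kilobase in TKO and at 1957, 7000 and 1062 in THC. Even in TKO, each immunosubunit RNA was thus below its constitutive partner.

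As a share of the RNA of its pair per length, Psmb8 made up 11.6, 12.4 and 16.3% in TKO, against 1.06, 2.30 and 1.18% in THC. Psmb9 made up 2.96, 2.43 and 3.31% of its pair with Psmb6 in TKO, against 0.461, 0.603 and 0.281% in THC. For both pairs every TKO library lay above every THC library. The size of such shares rests on the principal transcript lengths and would shift with other lengths. Psmb10 made up 10.9, 9.87 and 12.9% of its pair with Psmb7 in TKO, against 11.2, 13.2 and 8.75% in THC, and its groups overlapped. The log2 ratio of immunosubunit to partner differed by 3.38 for Psmb8 to Psmb5 (3.57 in February, 3.29 in November) and by 2.75 for Psmb9 to Psmb6 (2.68 and 2.79), with an exact two-sided permutation p of 0.1 for each and 0.15 after adjustment over the 3 pairs. With 3 samples against 3 this test cannot go below 0.1. For Psmb10 to Psmb7 the difference was 0.03 (exact permutation p = 1), and without THC 3 it was -0.14.

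**Figure D3:**
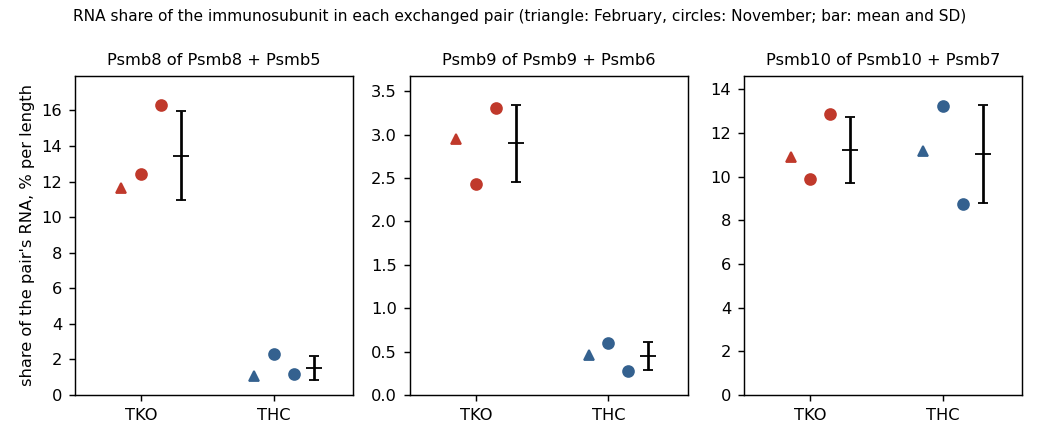
Share of each immunosubunit in the RNA of its exchanged pair, in percent per transcript length (y axes start at 0 and differ), in TKO (red, left) and THC (blue, right); triangles are February and circles November samples, bars show mean and SD (n = 3). The Psmb8 share was 13.5 ± 2.50% in TKO and 1.51 ± 0.684% in THC, the Psmb9 share 2.90 ± 0.446% in TKO and 0.449 ± 0.161% in THC, and the Psmb10 share 11.2 ± 1.52% in TKO and 11.0 ± 2.24% in THC.

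Of the PA28 activator, Psme2 rose and Psme1 came close to the threshold without passing it. Psme2, the beta subunit (chromosome 14, 55587441 to 55591113, minus strand), had 1498, 1927 and 1732 in TKO, against 1027, 1334 and 1429 in THC. The lowest TKO library lay just above the highest THC library. The log2 change was 0.45 (SE 0.12, adjusted p = 0.015 by limma), 0.54 in February and 0.40 in November. The call was lost without THC 1 (0.40, adjusted p = 0.086), TKO 1 (0.40, adjusted p = 0.085) or TKO 2 (0.42, adjusted p = 0.066), and with no batch term (0.45, adjusted p = 0.067). Without THC 1 or TKO 1 the batch term takes up the other February library. Both settings thus gave the change of the November samples alone and are not separate checks. Psme1, the alpha subunit (chromosome 14, 55578123 to 55581529, plus strand), had 1421, 1870.0 and 1655 in TKO, against 1149, 1397 and 1460.3 in THC. TKO 1 lay below THC 3, and within each batch every TKO value was above every THC value. Its log2 change was 0.30 (SE 0.12, 95% interval 0.04 to 0.56, adjusted p = 0.078 by limma), and the authors' deposited table gives an adjusted p of 0.12 for Psme1 and 0.0099 for Psme2. A difference between both subunits was not tested, and their intervals overlap.

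The other activators and the inhibitor did not pass the test. Psme3, the nuclear PA28 gamma activator, had 2463, 3096 and 2427 in TKO, against 2448, 2198 and 2909.5 in THC, with a log2 change of 0.08. Psme4, the PA200 activator, had 1090.2, 1351 and 1358 in TKO, against 1263, 1097 and 1219 in THC, and its change of 0.08 was -0.21 in February and 0.23 in November. Psmf1, which encodes the inhibitor PI31, had 991, 1081 and 881 in TKO, against 934, 1134 and 1087 in THC, a change of -0.10. The groups overlapped for all 3, and the sign turned for Psme3 without THC 2 (-0.05) or TKO 2 (-0.03), for Psme4 without THC 2 (-0.0041) and for Psmf1 without TKO 3 (0.01).

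The constitutive 26S particle, 14 core and 17 regulatory subunits, showed no call among its 31 genes by limma, edgeR or DESeq2, and 0 of them at an unadjusted p under 0.05, which 38.4% of all genes tested reached. Their log2 changes ran from -0.09 to 0.24 with a median of 0.05, in February 0.05 and in November 0.03. Every 95% interval lay within -0.40 to 0.52, so that changes as large as that of Psmc3ip, Psmb9 or Psmb8 lay outside the interval of every constitutive subunit. Summed over the 31 genes, normalized counts were 100280, 123831 and 102638 in TKO, against 98269, 102892 and 116248 in THC.

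In the core, the 7 alpha subunits had log2 changes of -0.04 to 0.07 and the 7 constitutive beta subunits of -0.09 to 0.20, all with overlapping groups and none past the test. Psma1, a structural ring subunit with the smallest p among the alpha subunits, had 3844, 4717 and 3979 in TKO, against 3754, 3881 and 4305 in THC (0.07). Psma6, another of that ring, had 3483, 4387 and 3812 in TKO, against 3219.6, 3729 and 4273 in THC (0.06). For both, TKO 2 was highest and THC 1 lowest. Psmb4, a non-catalytic beta subunit, had 1898, 2447 and 2463 in TKO, against 1773, 1791 and 2380.3 in THC (0.20, adjusted p = 0.31 by limma). Psmb1, also non-catalytic, had 3454, 4490.1 and 3825 in TKO, against 3264, 3599.9 and 3937 in THC (0.12). THC 1 was again the lowest library for both beta subunits.

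In the 19S particle the 6 ATPases had log2 changes of -0.04 to 0.24 and the 11 other subunits of -0.08 to 0.20, none past the test. Psmc3, an ATPase of the base ring, had 4619, 5613 and 4635 in TKO, against 3862, 4216 and 4489 in THC, and Psmd13, a subunit of the lid, had 2465, 2984 and 2504 in TKO, against 2272, 2253 and 2355 in THC. For these 2 of the 17 regulatory genes the groups did not overlap, yet the gaps were small beside the spread within TKO. Their changes were 0.24 (SE 0.13, adjusted p = 0.20) and 0.20 (SE 0.12, adjusted p = 0.25 by limma). Psmc6, another ATPase, had 2539, 3401 and 2737 in TKO, against 2424, 2474 and 3060.0 in THC (0.12). Psmd14, the lid's deubiquitinase, had 2967, 3597 and 2926 in TKO, against 2720.4, 2839.7 and 3291 in THC (0.10). Both overlapped.

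Within each genotype the libraries spread over a wider range than the median change between the genotypes. TKO 2 was the highest of the 6 libraries for 23 of the 31 subunits and THC 3 for 6, while THC 1 was the lowest for 17 and TKO 1 for 8. Relative to each subunit's THC mean, the median was -0.10, 0.22 and -0.04 in TKO 1, 2 and 3, against -0.12, -0.03 and 0.13 in THC 1, 2 and 3. The February libraries were thus low in both genotypes.

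**Figure D4:**
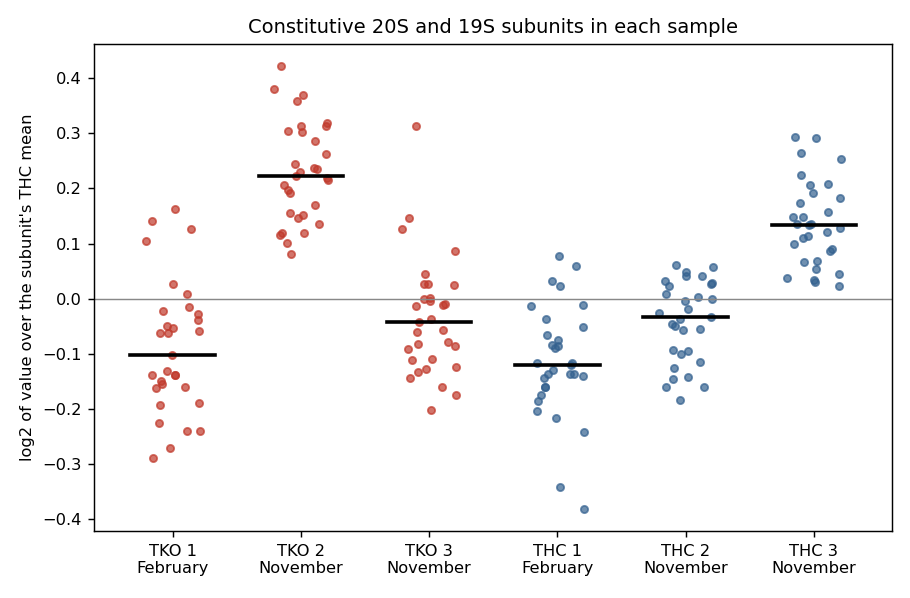
Each of the 31 constitutive 20S and 19S subunits (points) in each sample, as the log2 of its value over the subunit's own THC mean (y axis); black lines are medians, TKO samples red and left, THC samples blue and right. TKO 2 stands highest with a median of 0.22, and THC 1 lowest with -0.12.

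Of 7 assembly chaperones, Psmg2 rose and 6 did not pass. Psmg2, a partner of Psmg1 in assembling the alpha ring, had 1346, 1507 and 1509 in TKO, against 980.3, 1006 and 1078 in THC. The groups were narrow and clearly apart. The log2 change was 0.51 (SE 0.12, adjusted p = 0.0069 by limma), and it passed under all 16 alternative settings (0.47 to 0.53). Its neighbour Cep76, a centriolar protein gene that is transcribed away from it on the other strand, rose by 0.87 (adjusted p = 0.00093 by limma). Psmg4 had 275, 392.3 and 319 in TKO, against 194, 239.9 and 362 in THC, a change of 0.34 (adjusted p = 0.23 by limma), with overlap. Psmg1 (0.27) and Psmg3 (-0.08) of the core's chaperones, and Psmd5 (0.13), Psmd9 (-0.02) and Psmd10 (-0.05), which help to assemble the 19S base, did not pass either.

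The tissue-restricted core subunits were barely present. Psma8, the alpha subunit of the testis, had 29.3, 19.3 and 15.5 in TKO, against 17.04, 23.6 and 9.09 in THC, with a change of 0.39 (SE 0.48, adjusted p = 0.60 by limma). Psmb11, the beta subunit of the thymic cortex, did not reach the level for testing, with 0, 1.07 and 0.966 in TKO, against 2.00, 1.89 and 0 in THC. Both lay near the limit of counting, and Psmb11 at 2 reads or fewer in any library.

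Psme2b, a copy of Psme2 whose reads cannot be told from those of Psme2 without knowing how multiply mapped reads were counted, stood at 18.4 to 21.5 in TKO and 11.1 to 21.0 in THC (0.37, adjusted p = 0.58 by limma). The pseudogenes Psma5-ps, Psmb5-ps, Psmb6-ps, Psmb6-ps2 and Psmb7-ps2 did not reach the level for testing, with values of 0 to 9.09. Psmc3ip is taken in by the symbol rule but encodes HOP2, a partner of the recombinases in homologous pairing, and no subunit. It had 1111, 1609 and 1300.0 in TKO, against 445, 573 and 783 in THC. All TKO libraries lay above all THC libraries, and the log2 change was 1.18 (SE 0.15, adjusted p = 0.00015 by limma). Without it, 4 of 48 proteasome genes were called.

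The raised immunosubunits are neighbours in the MHC class II region, and the genes around them did not all move with them. In chromosome order, the log2 change was 0.06 for H2-DMa, 1.13 for H2-DMb1, 2.73 for Psmb9, 2.66 for Tap1, 3.30 for Psmb8, 0.06 for Tap2, -0.44 for H2-Ab1, -0.32 for H2-Aa and 1.47 for H2-Eb1. Only Psmb9, Tap1 and Psmb8 of these 9 tested genes were called. Tap1, a subunit of the transporter that carries peptides into the endoplasmic reticulum, had 581, 491 and 892 in TKO, against 74.2, 153 and 86.9 in THC. Its gene overlaps the 5′ end of Psmb9 on the other strand, and their RefSeq windows share 275 bases. The library chemistry keeps no strand, so reads in this overlap cannot be assigned to one or the other. Tap2, the partner of Tap1 on the far side of Psmb8, had 294, 250.4 and 324 in TKO, against 268, 338 and 231 in THC. The antisense gene Gm20496, which overlaps Psmb8, had no read in any sample.

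Around PA28 on chromosome 14, Psme1 and Psme2 flank Emc9 (-0.27), whose gene overlaps the end of Psme1. Beyond Psme2 lay the interferon signalling gene Irf9, which rose by 1.48, and Rnf31 between them (0.18) did not pass. Further out on that side the antisense gene Gm49747 rose by 1.93. On the side of Psme1, Pck2 rose by 0.56 and Dcaf11 fell by 0.53. Next to Psmb10 on chromosome 8, Lcat, an enzyme of cholesterol esterification, fell by 2.74, and Slc12a4 (-0.18) did not pass. The antisense gene Gm16156, which overlaps Psmb10, had at most 6.01.

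**Figure D5:**
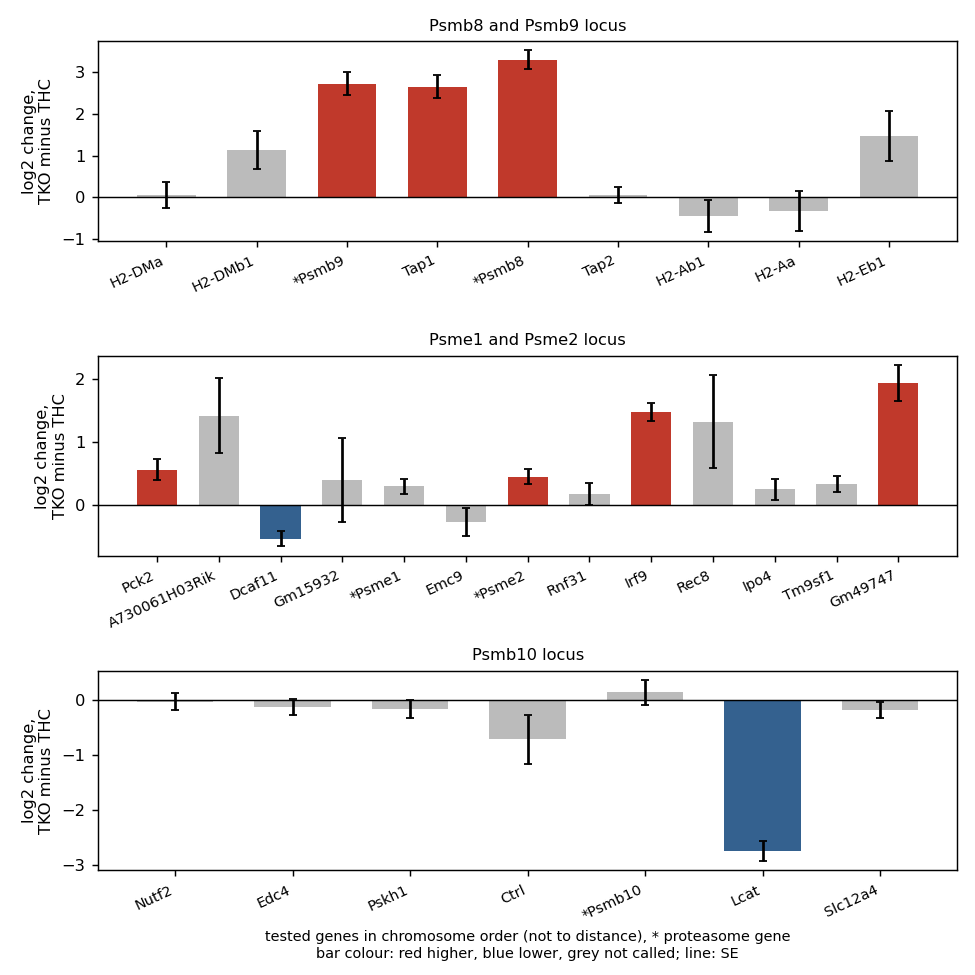
Log2 change, TKO minus THC (bars, with SE as lines), of the tested genes around Psmb8 and Psmb9, around Psme1 and Psme2, and around Psmb10, in chromosome order and not to distance. Red bars were called higher, blue bars lower and grey bars neither; at the first locus only Psmb9 (2.73), Tap1 (2.66) and Psmb8 (3.30) were called.

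Of the proteasome's partners and regulators outside the Psm symbols, 21 of a list of 22 were tested (Paaf1 was not analysed here). Among the 21, 2 rose and 0 fell, against 14.3% and 13.6% over all genes tested. Their median change was -0.01. Nfe2l2, a transcription factor of the oxidative stress response that can raise proteasome genes, had 3611, 3182 and 3385 in TKO, against 2529, 1893 and 1847 in THC (0.71, adjusted p = 0.0010 by limma). Uchl5, a deubiquitinase of the 19S particle, had 1294, 1628 and 1339.6 in TKO, against 841, 837 and 1256 in THC (0.56, adjusted p = 0.021 by limma). Both genes had groups that did not overlap, but Uchl5 was no longer called without THC 2 (0.40) or TKO 2 (0.49). Its call was also lost without either February library, THC 1 or TKO 1, where the change was that within November (0.53). Pomp, a chaperone of core assembly, had a log2 change of 0.10, and Nfe2l1, the factor that restores proteasome genes when the proteasome is inhibited, one of -0.23. The receptor Adrm1 (-0.03) and the deubiquitinase Usp14 (-0.06) did not pass either.

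Of 14 genes of peptide presentation downstream of the immunoproteasome, 9 rose and 0 fell, against 14.3% and 13.6% over all genes tested. Their median change was 0.59. Beside Tap1 the 9 included the class I heavy chains H2-D1 (2.14) and H2-K1 (1.503), the light chain B2m (2.13), the class I transactivator Nlrc5 (2.29) and the chaperone Canx (0.64). Nlrc5, which acts on the genes of class I and on Psmb9, Tap1 and B2m, had 118, 158 and 209 in TKO, against 25.1, 49.1 and 25.2 in THC. Canx was no longer called without either February library, THC 1 or TKO 1, where the change was that within November (0.59).

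Of a list of 20 inducers of immunosubunit genes, 18 were tested. Among the 18, 6 rose and 2 fell, against 14.3% and 13.6% over all genes tested. Their median change was 0.04. Irf1, which acts on Psmb8, Psmb9 and Psmb10, had 3107, 1551 and 2291 in TKO, against 771, 701 and 562 in THC (1.73). Every TKO library lay above every THC library. Irf7 (2.27), Irf8 (1.52), Irf9 (1.48) and Stat2 (0.94) rose as well, and the receptor kinase Tyk2 (-0.56) and the receptor chain Ifnar2 (-0.37) fell. The interferons Ifng and Ifnb1 were too low for testing, at 3.90 or less in TKO and at 6.06 or less in THC.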

How the data were processed

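RNA of sorted SVZ cells was made into libraries with the SMART-Seq v4 and Nextera XT kits, per the labels' protocols. HISAT2, Subread's featureCounts, DESeq2 and GRCm38 are named in the submitters' processing notes; versions, annotation and the handling of multiply mapped reads are not given in the sources. The authors deposited normalized counts, a signal scaled by 1 factor per sample, with their log2 fold changes and standard errors, p-values, adjusted p-values, and scores (test statistic and weight), per the file headers. Values were whole multiples of a step per library (0.944 to 1.07) within 0.001 for 100% of values; for THC 1 and THC 3 the step lies within 1% of 1, which is hard to tell from rounding. The recovered reads gave the depth and the edgeR, DESeq2 and TMM alternatives only.

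The plan allowed a count test had the table held raw counts. It holds normalized values, so limma 3.58.1 (R 4.3.3, intensity trend, batch plus genotype, 3 residual and 8.90 prior degrees of freedom) was run on log2(value + 1) for genes with at least 10 in at least 3 samples. This scale understates changes of low genes. edgeR 4.0.16 and DESeq2 1.42.0 served as alternatives. All sample columns were mapped. Libraries of a genotype differed beyond counting noise (chi-square of at least 14.1 per degree of freedom). Where nothing shows separate animals, p-values measure the spread between pools. The limma code was tested on simulated data, with changes placed in genes drawn from all those tested. It recovered 19.4% of 1.5-fold, 65.7% of 2-fold and 93.9% of 4-fold changes.

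The members, classes, gene lists and motifs were chosen with earlier results of these data known. Named genes were the immunosubunits, their partners, activators, inhibitor, tissue-restricted subunits, in each other class the 2 with the smallest p, and up to 6 called members per list; any others were chosen after their values were seen. Positions and principal transcript lengths are from GENCODE M21 (GRCm38). A gene of the lists is not reported here by name.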

Additional observations from a re-analysis of the deposited data

How the results depend on the processing

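Under 16 alternative settings the number of proteasome genes called was 4 or 5, and the number over all genes 3588 to 4904. It was 4 in November samples only, with no batch term, and without THC 1, TKO 1 or TKO 2, each time through the loss of Psme2. Without either February library, THC 1 or TKO 1, the batch term takes up the other. These settings gave the same log2 changes as November samples only, so the 16 settings are not all separate checks. Psmb8, Psmb9, Psmg2 and Psmc3ip were called under all 16, with log2 changes of 3.17 to 3.47, 2.47 to 2.998, 0.47 to 0.53 and 1.07 to 1.33. The authors' deposited adjusted p, an alternative chosen after seeing the data, gave 5. No constitutive 26S subunit was called under any setting. With the replicate number as a block in place of the batch, 5 proteasome genes and 4069 genes in all were called; same-numbered samples correlated by 0.23, -0.11 and 0.14 in their deviations, so the numbers were not taken to pair them. Leaving out 1 library at a time turned the sign of small changes that had not passed: Psmb10 ranged from -0.060 to 0.32, Psmb5 from -0.22 to 0.041, Psmb6 from -0.11 to 0.087, Psme3 from -0.045 to 0.19, Psme4 from -0.0041 to 0.23, Psmf1 from -0.19 to 0.014, Psma1 from -0.0075 to 0.13, Tap2 from -0.084 to 0.23, and the ratio of Psmb10 to Psmb7 from -0.14 to 0.19. The cause of these turns was not tested. Of the log2 changes of single named genes, each counted once per setting, 583 kept their direction and side of the threshold. Of these values 13 lost their call, all for Psme2, Uchl5 or Canx, and 11 turned sign. With 3 samples a group, the 95% intervals of the constitutive subunits reach from -0.40 to 0.52, and the exact test of the ratios could not fall below 0.1.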

Other observations

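The immunosubunits kept different proportions to each other in the groups. Psmb9 made up 58.5, 58.6 and 58.5% of the summed RNA of Psmb9 and Psmb10 per length in the TKO samples, against 17.8, 20.7 and 17.7% in the THC samples. Psmb8 made up 61.4, 67.7 and 68.9% of its sum with Psmb10 in the TKO samples, against 12.7, 19.8 and 21.5% in the THC samples. The genes of PA28 stayed close to equal, with Psme2 at 54.9, 54.4 and 54.7% of the sum of Psme1 and Psme2 per length in the TKO samples, against 50.8, 52.5 and 53.1% in the THC samples. These proportions were chosen after the values were seen and carry no test. They use principal transcript lengths, and their size would shift with other lengths.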
